A study of Mus musculus with 16 samples.

Results

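Thrombospondins and other matricellular proteins are secreted glycoproteins that act in the extracellular matrix without being its main building material. The 10 transcripts described here, of 23946 genes in the table, encode 4 thrombospondins (Thbs1, Thbs2, Thbs3 and Thbs4), connective tissue growth factor (Ctgf) and cysteine-rich angiogenic inducer (Cyr61), periostin (Postn), tenascin C (Tnc), the collagen-binding protein Sparc and cartilage intermediate layer protein (Cilp). They were taken by name from the gene table, and the list was chosen by their FPKM in the right ventricle, whose difference between banded and sham libraries was already known. Their right ventricular values are therefore given as a description with no test, and so is every difference between ventricles that holds them. The left ventricular effect of banding was tested, but earlier results of these data were known when the list was chosen. They held the left ventricular rise of Postn, so the left test is not independent of the choice.

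The tissue was the right or left ventricular free wall of adult male FVB mice, an inbred strain, aged 10 to 13 weeks. Pulmonary artery banding narrows the artery leaving the right ventricle and so loads that chamber, and the study used it to produce right ventricular failure. The groups were the banded right ventricle, the sham-operated right ventricle, the banded left ventricle and the sham-operated left ventricle, with 4 polyA RNA libraries each. The labels write PS where the protocol names banding, so PS was read as banded, and the banded libraries of both ventricles carry the numbers PS_9552, PS_9553, PS_9561 and PS_9564. Sham libraries are numbered 1 to 4. The labels give no time after surgery and do not say whether equal numbers came from the same mouse.

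Thrombospondins 1 and 2 form trimers that bind the receptors CD36 and CD47, and thrombospondin 1 can activate latent TGF-beta. Thrombospondins 3 and 4 form pentamers, lack the region by which the trimers bind CD36, and in mouse heart thrombospondin 4 has been linked to the endoplasmic reticulum stress factor Atf6. Ctgf and Cyr61 belong to the CCN family, bind integrins and are standard targets of the mechanosensitive YAP/TEAD transcription factors. Periostin, tenascin C, Sparc and Cilp are made largely by fibroblasts and are known to increase in injured or loaded hearts.

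The libraries differed in overall level and in depth. The precursor of ribosomal RNA, Rn45s, had a listed value of 0 in right ventricular PS_9561 and PS_9564 and in left ventricular PS_9552, PS_9553 and PS_9561. The scale factors of these libraries lay between 1.22 and 1.28, against 0.840 to 1.02 for the others. Each value was therefore analysed as deposited and after division by its library's scale factor (rescaled), and a gene is said to have risen or fallen where it passed the test in 1 direction on both scales. Estimated fragments were 2340000 to 5620000 per library in the banded right ventricle, 339000 to 1350000 in the sham right ventricle, 3550000 to 8910000 in the banded left ventricle and 1700000 to 4270000 in the sham left ventricle. Pancreatic marker transcripts (Ins1, Ins2, Gcg, Iapp and Resp18) summed to 64.5 to 154 FPKM in the banded right ventricle against 637 to 2150 FPKM in the sham right ventricle, and to 24.0 to 58.2 FPKM in the banded left ventricle against 87.3 to 2091 FPKM in the sham left ventricle. Their part in the results below was not tested. In bulk tissue, more cells of a type and more RNA per cell cannot be told apart.

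The 250 bases upstream of the RefSeq start site (build GRCm38.p6) were available for 8 of the 10 genes. Thbs1 and Ctgf had no entry. Shown are Postn, Thbs4 and Cilp, the members with an entry that differed most between banded and sham right ventricles, Cyr61 as a standard YAP/TEAD target, and Thbs2, which differed least. Both strands were searched. Capitals mark matches to CATTCC, the core bound by TEAD factors, and to TATAAA, the TATA motif. The AP-1 motif TGANTCA had no match in the 8 sequences.
Thbs4, chr13:92794819-92795068, minus strand: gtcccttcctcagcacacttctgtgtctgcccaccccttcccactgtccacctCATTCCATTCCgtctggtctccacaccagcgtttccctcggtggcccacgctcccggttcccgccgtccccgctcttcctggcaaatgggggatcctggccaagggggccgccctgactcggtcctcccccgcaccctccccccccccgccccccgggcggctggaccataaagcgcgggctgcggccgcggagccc
Thbs2, chr17:14694263-14694512, minus strand: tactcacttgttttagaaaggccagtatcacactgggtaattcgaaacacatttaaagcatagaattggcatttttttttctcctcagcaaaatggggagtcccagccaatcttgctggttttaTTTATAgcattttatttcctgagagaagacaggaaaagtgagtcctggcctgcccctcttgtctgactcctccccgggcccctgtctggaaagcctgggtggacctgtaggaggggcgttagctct
Cyr61, chr3:145649986-145650235, minus strand: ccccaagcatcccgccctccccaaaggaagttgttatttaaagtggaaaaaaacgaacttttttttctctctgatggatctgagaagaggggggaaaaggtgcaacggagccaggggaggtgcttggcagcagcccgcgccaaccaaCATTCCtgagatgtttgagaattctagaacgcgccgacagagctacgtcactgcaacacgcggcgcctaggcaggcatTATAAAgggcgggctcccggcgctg
Postn, chr3:54360857-54361106, plus strand: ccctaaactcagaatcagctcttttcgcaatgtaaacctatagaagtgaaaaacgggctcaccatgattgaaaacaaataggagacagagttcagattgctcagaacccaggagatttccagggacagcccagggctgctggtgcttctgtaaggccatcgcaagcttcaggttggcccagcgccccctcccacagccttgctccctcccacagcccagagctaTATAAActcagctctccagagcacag
Cilp, chr9:65264930-65265179, plus strand: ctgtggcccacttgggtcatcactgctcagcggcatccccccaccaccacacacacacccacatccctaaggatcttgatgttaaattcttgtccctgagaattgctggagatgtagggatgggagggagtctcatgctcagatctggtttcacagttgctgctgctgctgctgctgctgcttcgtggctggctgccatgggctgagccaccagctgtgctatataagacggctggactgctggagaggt
Thbs4 held a pair of CATTCC matches that overlap by 1 base, starting 197 and 192 bases upstream of the start site. Cyr61 held 1 CATTCC match starting 103 bases upstream and a TATAAA match 25 bases upstream. Postn held TATAAA 26 bases upstream. Thbs2 held TATAAA on the opposite strand, 126 bases upstream, and Tnc, not printed, held it at the same distance on the coding strand. Cilp, Thbs3 and Sparc had no match to any motif in these windows, but the start site behind the Sparc window lies 3103 bases from the start of that gene in the GENCODE annotation, so the window may not be its main promoter. Of 32851 mouse promoter windows of this length, 12.6% held CATTCC, 12.4% held TATAAA and 6.75% held TGANTCA. A match is a description of the letters and says nothing of binding in these hearts.

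**Figure D1:**
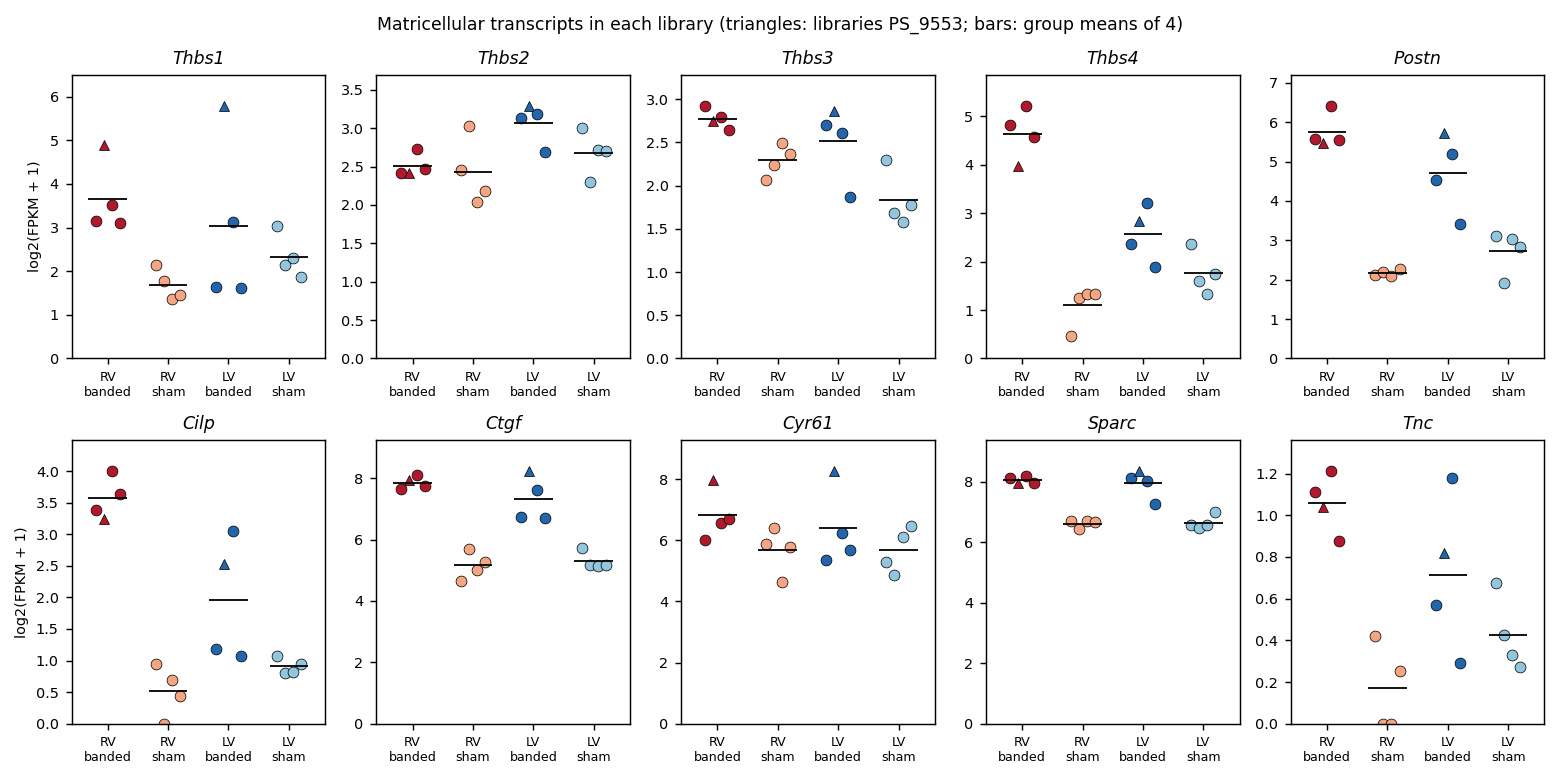
Level of each of the 10 transcripts in each of 16 libraries, as log2(FPKM + 1) on the deposited scale, with banded left of sham for each ventricle, bars at the mean of 4 libraries and triangles for libraries PS_9553. Thbs4, Postn, Cilp, Ctgf and Sparc in the banded right ventricle lie above every sham right ventricular library, Thbs2 overlaps throughout, and Thbs1 and Cyr61 have their highest value in both ventricles in PS_9553.

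Thbs1 encodes thrombospondin 1. It was at 7.85, 28.6, 10.4 and 7.61 FPKM in right ventricular PS_9552, PS_9553, PS_9561 and PS_9564, against 3.45, 2.45, 1.58 and 1.72 FPKM in the sham right ventricles. Every banded right ventricle lay above every sham one, and PS_9553 was far above the other 3. The left ventricles held Thbs1 at 2.11, 54.0, 7.78 and 2.07 FPKM in the banded libraries in the same order, against 7.26, 3.40, 3.94 and 2.63 FPKM in the sham libraries. The left groups overlapped, with PS_9553 alone reaching a level not seen elsewhere in the series. The log2 difference was 1.97 ± 0.67 (SE, n = 4 per group, rescaled 1.83) in the right ventricle, and 1.57 without PS_9553. The left ventricular difference was 0.71 ± 0.67 (limma adjusted p = 0.512 as deposited, 0.823 rescaled), and -0.21 without PS_9553.

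Thbs2 encodes the other trimeric member, an inhibitor of angiogenesis. It was at 4.33, 4.36, 5.62 and 4.53 FPKM in the banded right ventricles, against 4.48, 7.18, 3.10 and 3.54 FPKM in the sham right ventricles. The groups overlapped fully. The left ventricles held 7.81, 8.76, 8.08 and 5.45 FPKM with banding, against 7.04, 3.92, 5.59 and 5.50 FPKM with sham surgery, again overlapping. Its log2 difference was 0.08 ± 0.23 in the right ventricle and took the other sign when rescaled (-0.08), with a range of -0.31 to 0.49 over all alternative settings. For the left ventricle it was 0.39 ± 0.23 (limma adjusted p = 0.264, rescaled 0.943).

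Thbs3 encodes a pentameric thrombospondin. It was at 6.55, 5.71, 5.94 and 5.23 FPKM in the banded right ventricles, against 3.18, 3.72, 4.64 and 4.17 FPKM in the sham right ventricles. The groups were apart as deposited and overlapped when rescaled. Left ventricular levels were 5.49, 6.28, 5.12 and 2.65 FPKM with banding, against 3.91, 2.20, 1.98 and 2.43 FPKM with sham surgery. The 3 higher left banded libraries are those in which Rn45s was listed at 0, and PS_9564 lay within the sham range. The log2 differences were 0.48 ± 0.23 (rescaled 0.33) in the right ventricle and 0.68 ± 0.23 in the left (limma adjusted p = 0.0565, rescaled 0.357).

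Thbs4 showed the largest contrast of the family. It was at 27.2, 14.8, 36.0 and 22.8 FPKM in the banded right ventricles, against 0.385, 1.37, 1.52 and 1.53 FPKM in the sham right ventricles. No banded library came near the sham range. The left ventricles held 4.13, 6.19, 8.30 and 2.70 FPKM with banding, against 4.17, 2.04, 1.53 and 2.34 FPKM with sham surgery, and these groups overlapped. Banding against sham gave a log2 difference of 3.55 ± 0.33 (rescaled 3.40) in the right ventricle and 0.81 ± 0.33 in the left (limma adjusted p = 0.103, rescaled 0.375). The sham right ventricular values rest on few fragments, an estimated 1.40 to 5.15 per library against 191 to 607 in the banded right ventricle. With a pseudocount of 0.1 in place of 1 the right ventricular difference was 4.36, so its size depends on how the low sham values are treated.

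Among the 4 thrombospondins, the banded right ventricle therefore held Thbs4 at 25.2 ± 8.85, Thbs1 at 13.6 ± 10.0, Thbs3 at 5.86 ± 0.551 and Thbs2 at 4.71 ± 0.613 FPKM (SD, n = 4). The sham right ventricle held Thbs4 at 1.20 ± 0.550, Thbs1 at 2.30 ± 0.854, Thbs3 at 3.93 ± 0.625 and Thbs2 at 4.58 ± 1.83 FPKM. FPKM are scaled per transcript length, so these levels can be set beside each other. By mean level Thbs4 was first of the 4 in the banded right ventricle and last in the sham right ventricle, while Thbs2 was last in the banded and first in the sham one. That first place rests on right sham 2, at 7.18 FPKM on an estimated 13.9 fragments, against 3.10 to 4.48 FPKM in the others. Thbs2 and Thbs3 overlapped in both right ventricular groups, and Thbs4 and Thbs1 in the banded one, so the order within these pairs is not firm.

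Ctgf, the CCN family protein that promotes matrix production, was among the most abundant of the 10. It was at 200.2, 246, 274 and 213 FPKM in the banded right ventricles, against 24.2, 50.5, 31.5 and 38.1 FPKM in the sham right ventricles. The left ventricles held 107, 298, 195 and 103 FPKM with banding, against 51.7, 34.8, 34.1 and 34.8 FPKM with sham surgery. Neither ventricle showed any overlap, on either scale. Ctgf had a log2 difference of 2.70 ± 0.29 (rescaled 2.51) in the right ventricle. Ctgf rose in the left ventricle by 2.03 ± 0.29 (limma adjusted p = 0.00109, rescaled 1.63 with adjusted p = 0.0101).

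Cyr61, the related CCN family protein and an immediate early gene, varied widely within every group. It was at 63.5, 252, 92.7 and 102 FPKM in the banded right ventricles, against 57.9, 82.9, 23.7 and 54.5 FPKM in the sham right ventricles. Left ventricular Cyr61 was at 40.2, 303, 75.2 and 50.3 FPKM with banding, against 37.8, 27.8, 68.2 and 86.8 FPKM with sham surgery. Both ventricles overlapped, and PS_9553 was again the highest in each. Cyr61 had a log2 difference of 1.14 ± 0.56 in the right ventricle, and 0.74 without PS_9553. It was 0.71 ± 0.56 in the left ventricle (limma adjusted p = 0.417, rescaled 0.828), and 0.09 without PS_9553.

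Postn encodes periostin, which binds integrins and marks activated cardiac fibroblasts. It was at 46.4, 43.6, 83.8 and 46.2 FPKM in the banded right ventricles, against 3.36, 3.57, 3.26 and 3.85 FPKM in the sham right ventricles. The left ventricles held 22.2, 51.7, 35.4 and 9.65 FPKM with banding, against 7.58, 2.79, 7.19 and 6.15 FPKM with sham surgery. The groups were apart in both ventricles on both scales, but left ventricular PS_9564 lay just above the highest sham library. Postn had a log2 difference of 3.58 ± 0.38 (rescaled 3.41) in the right ventricle. Postn rose in the left ventricle by 1.99 ± 0.38 (limma adjusted p = 0.00358, rescaled 1.62 with adjusted p = 0.0185). Earlier results of these data already held this left ventricular rise, so it is no independent support.

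Tnc encodes tenascin C, a hexameric protein that is scarce in healthy adult heart, and it was the lowest of the 10. It was at 1.16, 1.06, 1.31 and 0.837 FPKM in the banded right ventricles, against 0.340, 0, 0 and 0.193 FPKM in the sham right ventricles. The right groups did not overlap, but an estimated 0 to 3.17 fragments stand behind each sham value and 18.7 to 51.0 behind each banded one. The left ventricles overlapped, at 0.484, 0.763, 1.26 and 0.225 FPKM with banding against 0.597, 0.344, 0.255 and 0.209 FPKM with sham surgery. The log2 difference was 0.89 ± 0.22 (rescaled 0.85) in the right ventricle and 0.29 ± 0.22 in the left (limma adjusted p = 0.389, rescaled 0.755). A pseudocount of 0.1 gave 2.64 in the right ventricle. Tnc passed the filter of 1 FPKM in 4 libraries through 4 banded libraries only, so its inclusion depended on the groups in which it is high.

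Sparc, which binds collagen and takes part in its assembly, was abundant in every library. It was at 281, 247, 293 and 249 FPKM in the banded right ventricles, against 102, 85.1, 102 and 101 FPKM in the sham right ventricles. The left ventricles held 279, 324, 263 and 153 FPKM with banding, against 94.3, 87.6, 93.1 and 129 FPKM with sham surgery. Both ventricles were free of overlap on both scales, and the smallest gap was between left PS_9564 and left sham 4. The log2 difference was 1.45 ± 0.19 (rescaled 1.25) in the right ventricle. Sparc rose in the left ventricle by 1.29 ± 0.19 (limma adjusted p = 0.00119, rescaled 0.88 with adjusted p = 0.0138).

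Cilp, found first in cartilage as a matrix protein and known to bind TGF-beta1, was low in the sham right ventricle. It was at 9.47, 8.46, 14.9 and 11.5 FPKM in the banded right ventricles, against 0.932, 0, 0.621 and 0.348 FPKM in the sham right ventricles. These groups were far apart, on an estimated 87.8 to 332 fragments per banded library and 0 to 4.97 per sham library. Left ventricular Cilp was at 1.28, 4.77, 7.28 and 1.10 FPKM with banding, against 1.09, 0.739, 0.770 and 0.915 FPKM with sham surgery. The left groups were apart as deposited by a small gap and overlapped when rescaled, with PS_9553 and PS_9561 well above the other banded libraries. The log2 difference was 3.05 ± 0.37 (rescaled 2.94, and 4.68 with a pseudocount of 0.1) in the right ventricle and 1.05 ± 0.37 in the left (limma adjusted p = 0.0633, rescaled 0.186). Cilp passed the filter through 8 banded libraries and 1 left ventricular sham library.

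**Figure D2:**
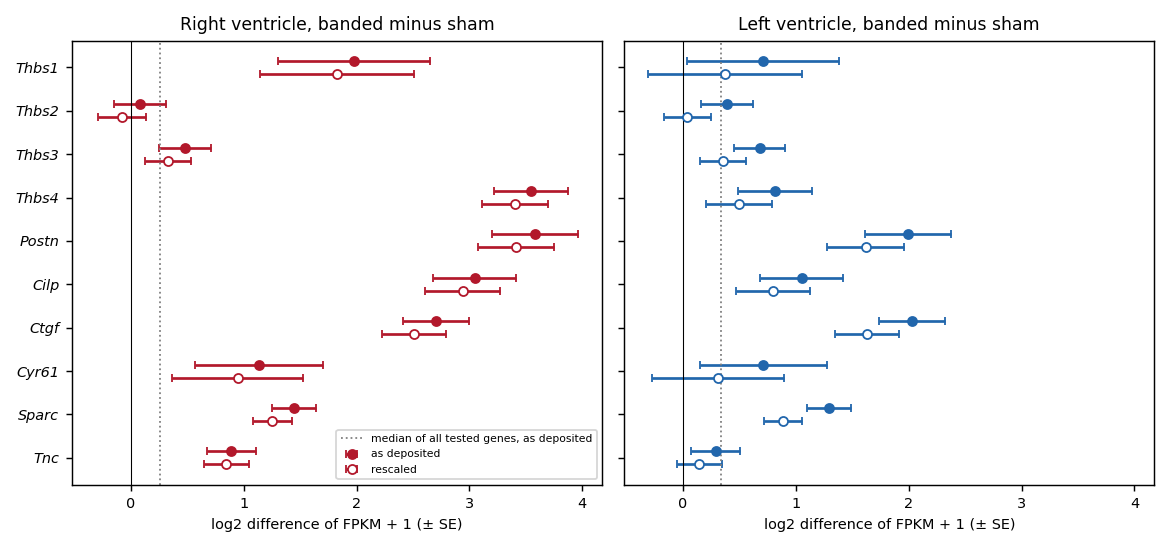
Log2 difference of FPKM + 1, banded minus sham, for each of the 10 transcripts in the right (left panel) and left ventricle (right panel), with SE from the limma fit, filled symbols as deposited and open symbols rescaled. The dotted line is the median of all tested genes as deposited, 0.26 (right ventricle) and 0.33 (left ventricle). Right ventricular values run from 0.08 (Thbs2) to 3.58 (Postn), and left ventricular values from 0.29 (Tnc) to 2.03 (Ctgf).

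In the right ventricle, 7 of the 10 transcripts were higher in every banded than in every sham library on both scales (Thbs1, Thbs4, Postn, Cilp, Ctgf, Sparc and Tnc), where 9.49% of the 12100 tested genes were. Thbs3 joined them as deposited, where the share of all genes was 12.6%. Since the members were chosen with this contrast known, nothing is read from that count. Their median log2 difference was 1.71 as deposited and 1.54 rescaled, against 0.26 and 0.11 over all tested genes. In the right ventricular banded libraries that had an Rn45s value, PS_9552 and PS_9553, the differences from sham were 3.35 for Postn, 3.30 for Thbs4, 2.80 for Cilp, 2.64 for Ctgf and 1.43 for Sparc, close to those with all 4.

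In the left ventricle, 3 of the 10 (Ctgf, Postn and Sparc) rose and none fell, where 2.44% of all tested genes rose and 0.298% fell. The members were chosen with earlier results of these data known, among them the left rise of Postn, so this count is no independent support. The same 3 were free of overlap on both scales, where 8.77% of tested genes were higher without overlap, and Cilp joined them as deposited, where 22.2% of tested genes were. The median log2 difference of the 10 was 0.76 as deposited and 0.44 rescaled, against 0.33 and 0.01 over all tested genes. Left ventricular PS_9564 was the lowest of the 4 banded libraries for 9 of the 10 as deposited, all but Cyr61, and for 6 of the 10 when rescaled. It is the only left banded library with an Rn45s value. With that library alone against the 4 sham libraries, the log2 differences were 1.41 for Ctgf, 0.69 for Postn and 0.61 for Sparc, and none was called by limma, with the lone library assumed to vary like the other groups. Without PS_9553 in the left ventricle, Ctgf kept its call (log2 difference 1.73, limma adjusted p = 0.0343), while Postn (1.66, adjusted p = 0.0668) and Sparc (1.16, adjusted p = 0.0552) missed it. For each left-out library the adjusted p is the larger over both scales. Without left sham 2, Postn (adjusted p = 0.0728) and Sparc (0.0569) missed it too, and Postn also did without left PS_9561 (0.0622).

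**Figure D3:**
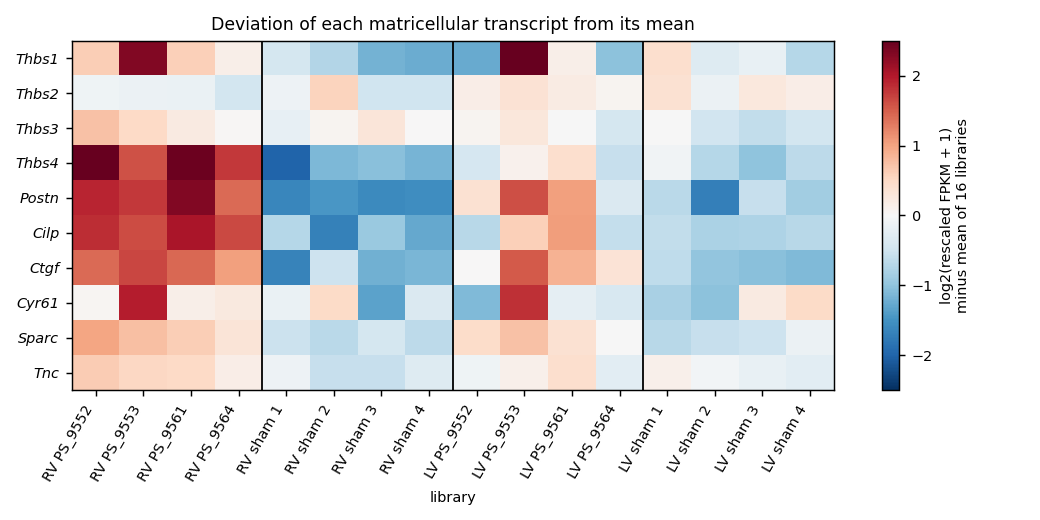
Each cell is the log2(rescaled FPKM + 1) of a transcript in a library minus its mean over 16 libraries, red above and blue below, with the colour scale ending at 2.5 in either direction and lines between the groups in the order banded right, sham right, banded left and sham left. The rows of Thbs4, Postn, Cilp and Ctgf are red in all 4 banded right ventricles. Thbs1 and Cyr61 are darkest in PS_9553 of both ventricles. In every row left PS_9564 lies lower on the colour scale than left PS_9553 and PS_9561, and it is blue in some rows.

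The 4 groups did not take the same order for every transcript. By mean FPKM, Thbs4, Postn, Cilp, Ctgf, Cyr61, Sparc and Tnc followed 1 order, banded right, banded left, sham left and sham right ventricle. Thbs4 and Cilp were the ones in which the banded right ventricle did not overlap the banded left, at 25.2 ± 8.85 FPKM in the right against 5.33 ± 2.45 FPKM in the left for Thbs4 and 11.1 ± 2.85 FPKM in the right against 3.61 ± 2.97 FPKM in the left for Cilp. Sparc stood at nearly the same mean in both banded ventricles, 268 ± 23.1 FPKM in the right and 255 ± 72.6 FPKM in the left. Ctgf averaged 233 ± 33.4 FPKM in the banded right ventricle and 176 ± 91.9 FPKM in the banded left, and these overlapped. The sham ventricles overlapped for all 10 as deposited, and for Thbs4 the sham right ventricle lay below the sham left when rescaled. Thbs1 and Thbs2 had their highest mean in the banded left ventricle, for Thbs1 through PS_9553, and Thbs3 ran banded right, banded left, sham right and sham left. Rescaled, Thbs1 was instead at 13.5 FPKM in the banded right and 13.4 FPKM in the banded left ventricle, and Thbs3 ran banded right (5.62), sham right (4.23), banded left (4.02) and sham left (2.91 FPKM).

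The right ventricular log2 difference minus the left one was 2.73 for Thbs4, 1.99 for Cilp, 1.59 for Postn and 1.27 for Thbs1. It was 0.67 for Ctgf, 0.60 for Tnc, 0.42 for Cyr61, 0.16 for Sparc, -0.20 for Thbs3 and -0.31 for Thbs2. The median over all tested genes was -0.07 as deposited and 0.11 rescaled. These 10 values carry no test, because they hold the contrast by which the members were chosen.

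The transcripts also differed in which other genes followed them over the 16 libraries. Likeness was measured as Pearson r of log2(rescaled FPKM + 1) against 7489 genes, and the groups and the shared libraries enter every r. Thbs4 and Cilp were both most like Hip1, an endocytic adaptor (r = 0.945 and 0.949, given as Thbs4 then Cilp), and Ltbp2, a latent TGF-beta binding protein family member (0.926 and 0.947). Ltbp2 was at 6.38 to 9.09 FPKM in the banded right ventricles, against 0.117 to 1.12 FPKM in the sham right ventricles. Postn was most like Fstl1 (0.959), a secreted glycoprotein, Nppa (0.954), which encodes atrial natriuretic peptide, and Fibin (0.954). Among the genes most like Ctgf were Nppa (0.952) and Tgfb2 (0.939). Sparc was most like Pi16 (0.948), Mfap5 (0.946) and Itgb1 (0.945), and Tnc was most like Col5a2 (0.925), Fn1 (0.910) and Ptprb (0.890). Thbs3 was most like the elastin gene Eln (0.900), Tagln2 (0.865) and Myl9 (0.860), and Thbs2 was most like Mmd (0.839), Ak6 (0.816) and Sar1b (0.787).

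Thbs1 and Cyr61 had other neighbours. Thbs1 was most like Errfi1 (0.880), a feedback inhibitor of EGF receptor signalling, Adamts1 (0.870), a secreted protease, and Klf6 (0.867). Cyr61 was most like Btg2 (0.954), Nr4a1 (0.901) and Zfp36 (0.892), which are immediate early genes. PS_9553 lay above the other 14 libraries in both ventricles for each of these genes except Klf6, which was at 24.4 FPKM in right and 45.2 FPKM in left PS_9553, against up to 28.8 FPKM elsewhere. Nr4a1 was at 180 FPKM in right and 205 FPKM in left ventricular PS_9553, against 6.99 to 33.8 FPKM in the other 14 libraries. Errfi1 was at 37.8 and 61.2 FPKM in right and left PS_9553, against 0.974 to 8.95 FPKM elsewhere, and Btg2 at 106 and 173 FPKM, against 20.8 to 65.5 FPKM elsewhere. Without both PS_9553 libraries, r over 14 libraries was 0.517 for Thbs1 with Errfi1, 0.699 for Cyr61 with Nr4a1 and 0.892 for Cyr61 with Btg2. Thbs4 with Hip1 was at 0.943 without them.

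**Figure D4:**
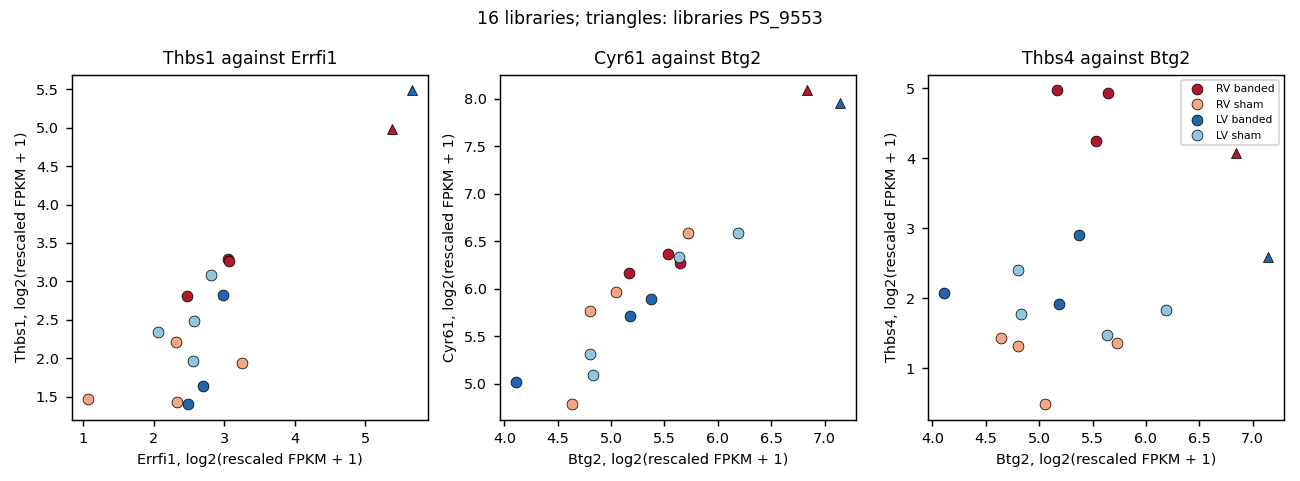
Levels in each of 16 libraries as log2(rescaled FPKM + 1), for Thbs1 against Errfi1 (left), Cyr61 against Btg2 (middle) and Thbs4 against Btg2 (right), with triangles for libraries PS_9553. In the first 2 panels both triangles lie at the upper right, apart from the other 14 libraries. In the third panel the banded right ventricles are high for Thbs4 at any level of Btg2.

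Among the 10 themselves, Postn with Ctgf (r = 0.950), Postn with Sparc (0.934), Thbs4 with Cilp (0.933) and Postn with Cilp (0.927) were closest over 16 libraries. With the group means taken out, these were 0.614, 0.553, 0.426 and 0.608. Thbs1 with Cyr61 was 0.789, 0.758 within groups and 0.363 without PS_9553. Thbs2 was between -0.24 and 0.24 with every other member, and within groups at 0.552 with Ctgf, 0.477 with Cyr61 and 0.457 with Postn.

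Other matricellular genes were read from a list of 19, of which 15 passed the filter. This list and the other related lists below were chosen with earlier results of these data known. Their counts and p-values are therefore no independent support. In the right ventricle 6 rose and 2 fell, where 10.5% of tested genes rose and 4.93% fell, and the list's median log2 difference was 0.62 against 0.26 over all genes. Fstl1 was at 65.1 ± 12.7 FPKM in the banded right ventricle, against 13.8 ± 3.62 FPKM in the sham right ventricle (log2 difference 2.18, limma adjusted p = 0.000306, rescaled 0.000101). Sparcl1, the closest relative of Sparc, was at 131 ± 38.0 FPKM with banding against 54.8 ± 6.43 FPKM with sham surgery (1.21, limma adjusted p = 0.00243, rescaled 0.000664), and Igfbp7 at 239 ± 67.3 FPKM with banding against 106 ± 28.0 FPKM with sham surgery (1.15, limma adjusted p = 0.00278, rescaled 0.0169). Tnxb, tenascin X, fell to 14.2 ± 0.911 FPKM in the banded right ventricle, against 23.1 ± 3.12 FPKM in the sham right ventricle (-0.66, limma adjusted p = 0.0164, rescaled 0.00457). Spock2, a testican proteoglycan, fell to 1.75 ± 0.298 FPKM with banding, against 3.68 ± 0.889 FPKM with sham surgery (-0.75, limma adjusted p = 0.0422, rescaled 0.00797), a call lost in 17 of 29 alternative settings.

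Left ventricular rises were seen for 3 of the 15, where 2.44% of tested genes rose, and none fell. Sparcl1 was at 152 ± 42.5 FPKM with banding against 66.6 ± 11.0 FPKM with sham surgery (1.14, limma adjusted p = 0.00408, rescaled 0.0203), and Fstl1 at 52.0 ± 20.5 FPKM with banding against 19.7 ± 5.87 FPKM with sham surgery (1.29, limma adjusted p = 0.00921, rescaled 0.90 with adjusted p = 0.0453). Spp1, osteopontin, was at 0.606 to 1.67 FPKM in the banded left ventricles and listed at 0 in all 4 sham left ventricles (limma adjusted p = 0.00792, rescaled 0.0339). No sham library of either ventricle held Spp1 above 0.439 FPKM, so it passed the filter through banded libraries only, and its calls depended on the groups in which it is high. The rise of Fstl1 was lost in 16 of 30 settings, that of Spp1 in 11 of 28 and that of Sparcl1 in 9 of 30. Over all tested genes, the right minus left difference was called upward in 0.529% and downward in 3.45%. Spock2 differed between ventricles, with a right minus left log2 difference of -1.59 (limma adjusted p = 0.00963, rescaled 0.0106).

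Of 18 receptors for these proteins, 15 passed the filter, and in the right ventricle 5 rose and none fell, where 10.5% of tested genes rose and 4.93% fell. Itgb1, the integrin beta1 chain shared by most matrix receptors, was at 74.2 ± 9.76 FPKM in the banded right ventricle, against 31.4 ± 2.78 FPKM in the sham right ventricle (1.21, limma adjusted p = 0.00188, rescaled 0.000640). Itga9, an integrin chain that binds tenascin C, was at 26.3 ± 7.91 FPKM with banding against 9.17 ± 3.24 FPKM with sham surgery (1.44, limma adjusted p = 0.00168, rescaled 0.000731). Cd47, a thrombospondin receptor, was at 17.9 ± 7.30 FPKM with banding against 6.87 ± 1.46 FPKM with sham surgery (1.20, limma adjusted p = 0.00576, rescaled 0.00169). The other thrombospondin receptor, Cd36, was not called in either ventricle. In the left ventricle 2 of the 15 rose, where 2.44% of tested genes did, Itgb1 (80.2 ± 23.3 FPKM with banding against 38.4 ± 9.28 FPKM with sham surgery, 1.02, limma adjusted p = 0.00590, rescaled 0.0417, lost in 15 of 30 settings) and Calr. Calr, calreticulin, an endoplasmic reticulum chaperone that also binds thrombospondin 1 at the cell surface, was at 132 ± 34.7 FPKM with banding against 50.8 ± 14.1 FPKM with sham surgery (1.35, limma adjusted p = 0.00241, rescaled 0.0111). In the right ventricle Calr was at 72.4 ± 13.9 FPKM with banding and 67.6 ± 17.0 FPKM with sham surgery, and the right minus left difference was -1.24 (limma adjusted p = 0.0332, rescaled 0.0191), lost in 15 of 30 settings.

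YAP/TEAD targets other than Ctgf and Cyr61 were read from a list of 20, of which 18 passed the filter. In the right ventricle 3 rose and none fell, against 10.5% and 4.93% of tested genes. Ankrd1, a stretch-responsive sarcomere protein, was at 3202 ± 718 FPKM in the banded right ventricle, against 389 ± 170 FPKM in the sham right ventricle (3.11, limma adjusted p = 4.39e-05, rescaled 2.73e-05). Tgfb2, a TGF-beta ligand, was at 15.2 ± 5.74 FPKM with banding against 3.63 ± 0.997 FPKM with sham surgery (1.77, limma adjusted p = 0.000509, rescaled 0.000183), and Ccdc80, a secreted matrix protein, at 24.9 ± 3.95 FPKM with banding against 11.2 ± 1.03 FPKM with sham surgery (1.08, limma adjusted p = 0.00389, rescaled 0.00290). The other 15 were not called, and the list's median was 0.45 against 0.26 over all genes. Tgfb2 also rose in the left ventricle, at 9.79 ± 2.98 FPKM with banding against 3.34 ± 0.673 FPKM with sham surgery (1.29, limma adjusted p = 0.00470, rescaled 0.0237, lost in 7 of 30 settings). Left ventricular Ankrd1 was at 3110 ± 1388 FPKM with banding against 1103 ± 361 FPKM with sham surgery. This left difference of 1.43 was not called (limma adjusted p = 0.0103, rescaled 0.0574). The effect of banding on Ankrd1 differed between ventricles by 1.68 (limma adjusted p = 0.0431, rescaled 0.0137, lost in 16 of 30 settings). The banded means were close, and the sham right mean was below the sham left one.

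All 12 factors of the Hippo pathway, which controls YAP and TEAD, passed the filter. In the right ventricle 3 rose, beside 10.5% of tested genes, and none fell. They were Tead1, the TEAD factor prominent in heart muscle, at 38.3 ± 14.1 FPKM with banding against 18.3 ± 3.20 FPKM with sham surgery (0.98, limma adjusted p = 0.00502, rescaled 0.00232), the coactivator Wwtr1 at 22.8 ± 4.58 FPKM with banding against 11.7 ± 2.21 FPKM with sham surgery (0.91, limma adjusted p = 0.0101, rescaled 0.0105) and the coactivator Yap1 at 28.9 ± 6.77 FPKM with banding against 18.0 ± 1.70 FPKM with sham surgery (0.63, limma adjusted p = 0.0170, rescaled 0.00521). Yap1 lost its call in 5 of 30 settings, including the correction for transcript length and GC content (log2 difference 0.13, adjusted p = 0.429), under which Wwtr1 lost it too (0.37, adjusted p = 0.151). None of the 12 was called in the left ventricle. Tead1 differed between ventricles by 1.04 (limma adjusted p = 0.0453, rescaled 0.00594, lost in 15 of 30 settings), at 30.9 ± 5.61 FPKM in banded and 31.8 ± 3.31 FPKM in sham left ventricles.

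Of Atf6 and 9 endoplasmic reticulum genes, 1 rose in each ventricle, where 10.5% of tested genes rose in the right and 2.44% in the left. Atf6 itself rose in the right ventricle, to 13.5 ± 3.67 FPKM with banding, against 5.78 ± 0.926 FPKM with sham surgery (1.08, limma adjusted p = 0.00331, rescaled 0.00157). Left ventricular Atf6 was higher, at 18.8 ± 3.78 FPKM with banding against 11.3 ± 2.18 FPKM with sham surgery. It was not called there (0.68, limma adjusted p = 0.0399, rescaled 0.334). Nor was its right minus left difference called (0.40, limma adjusted p = 0.547, rescaled 0.130). Hsp90b1, an endoplasmic reticulum chaperone, rose in the left ventricle, to 73.7 ± 20.9 FPKM with banding against 32.1 ± 9.34 FPKM with sham surgery (1.17, limma adjusted p = 0.0112, rescaled 0.77 with adjusted p = 0.0454), and lost its call in 18 of 30 settings. The list's median was 0.29 in the right ventricle, close to the 0.26 of all genes, and 0.75 against 0.33 in the left.

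**Figure D5:**
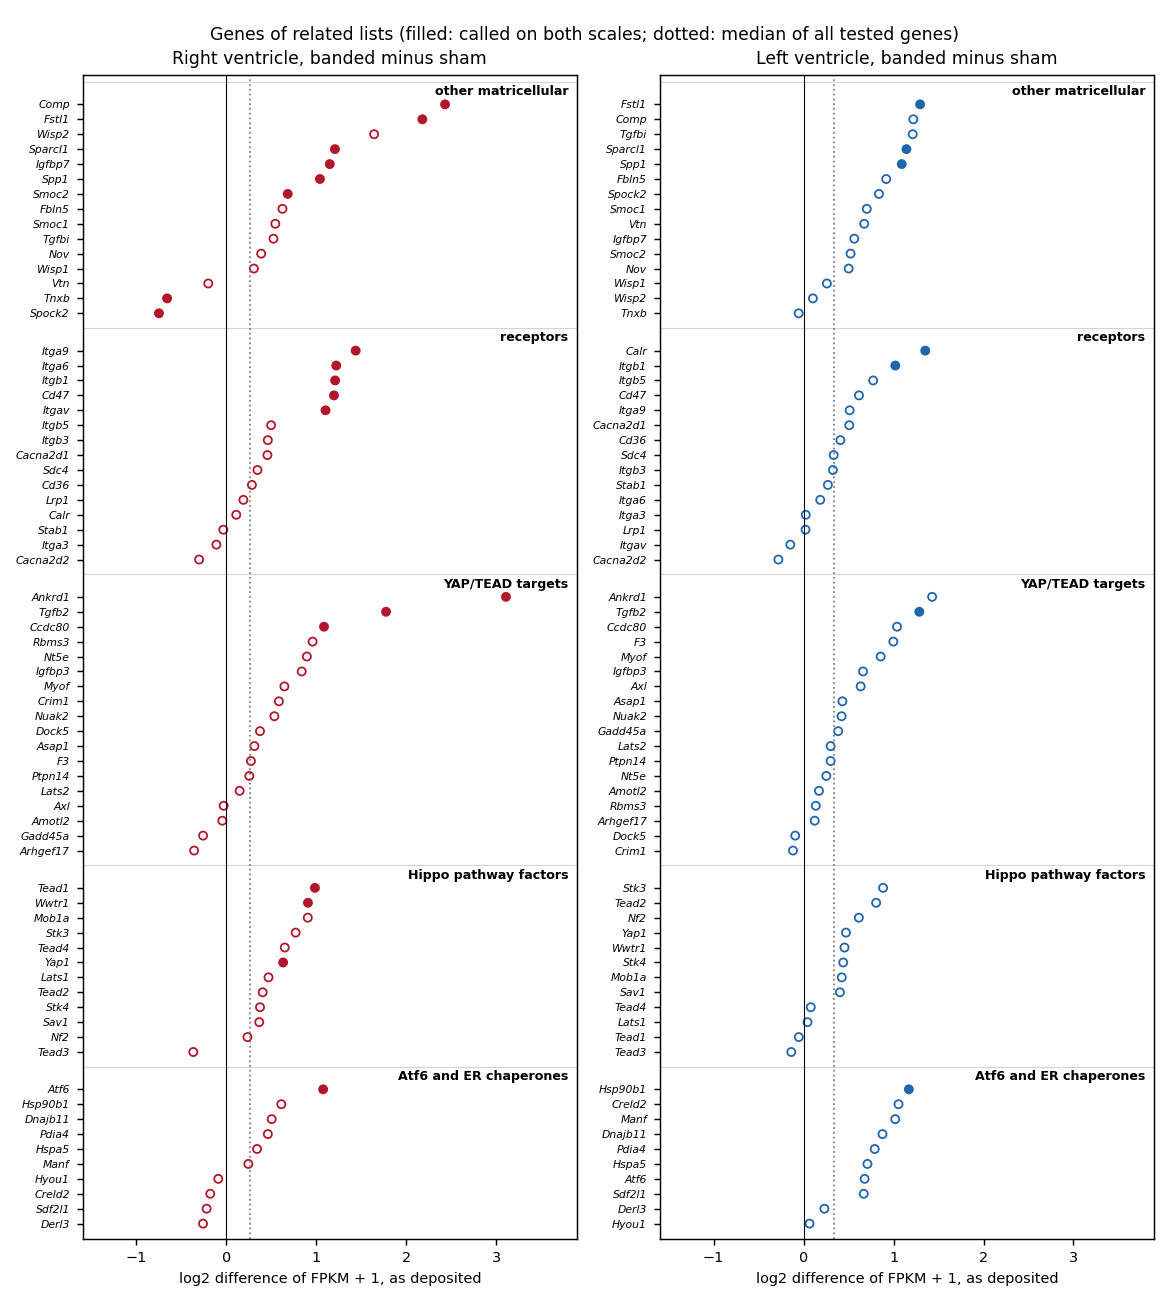
Log2 difference of FPKM + 1 as deposited, banded minus sham, for each tested gene of the 5 related lists in the right (left panel) and left ventricle (right panel), sorted within a list. Filled points passed the limma test on both scales, and the dotted line is the median of all tested genes. In the right ventricle 18 genes rose and 2 fell, with Ankrd1 the farthest at 3.11, and in the left ventricle 7 rose.

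Marker lists of several cell types were read beside the members. They too were chosen with earlier results of these data known, so their counts are no independent support. In judging the counts, 10.5% of tested genes rose and 4.93% fell in the right ventricle, and 2.44% rose and 0.298% fell in the left. Of 4 tested mesothelial markers, 2 fell and none rose in the right ventricle, and 1 rose and none fell in the left. None of 3 atrial markers was called in either ventricle. The summed level of 5 activated fibroblast markers was 28.9 to 46.5 FPKM in banded right ventricles, against 8.25 to 13.8 FPKM in sham right ventricles, and 3 of the 4 tested (Meox1, Lox and Col8a1) rose. The left ventricular sum was 17.7 to 40.5 FPKM with banding, against 13.0 to 25.4 FPKM with sham surgery, and none of the 4 was called. Lox was at 1.09 to 3.19 FPKM in banded right ventricles and at most 0.782 FPKM in sham ones. Within the right ventricle it thus reached the 1 FPKM of the filter only in the group in which it is high. The 11 general fibroblast markers summed to 762 to 1263 FPKM in banded right ventricles, against 889 to 1204 FPKM in sham right ventricles, with 3 risen and 2 fallen. Left ventricular sums of the same markers were 1016 to 1623 FPKM with banding and 573 to 838 FPKM with sham surgery, with 2 of 11 risen, and the sums did not overlap. The 11 macrophage markers summed to 195 to 337 FPKM in banded against 147 to 224 FPKM in sham right ventricles, with 1 of 11 risen, and to 251 to 412 FPKM in banded against 128 to 188 FPKM in sham left ventricles, with 2 of 11 risen.

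Of the 7 tendon and cartilage markers, listed because Thbs4, Cilp and Comp are also made there, the sum was 21.3 to 32.6 FPKM in banded right ventricles, against 6.56 to 8.99 FPKM in sham right ventricles. The defining markers Tnmd, Col2a1 and Acan were listed at 0 in all sham right ventricles. In the banded ones Tnmd was at 0.812 to 3.18, Acan at 0.0408 to 0.156 and Col2a1 at 0 to 0.0865 FPKM. Tnmd and Acan were also listed at 0 in all sham left ventricles. At 339000 to 1350000 estimated fragments per sham right library, against 2340000 to 5620000 in banded right ones, a listed 0 does not show absence. Of the 4 tested, Scx, a tendon transcription factor, rose, at 14.7 ± 4.49 FPKM with banding against 3.28 ± 0.366 FPKM with sham surgery (1.84, limma adjusted p = 0.000256, rescaled 0.000721). Left ventricular libraries summed to 13.8 to 18.7 FPKM with banding, against 6.97 to 13.6 FPKM with sham surgery, and none was called. These left sums overlapped when rescaled. Platelets carry thrombospondin 1, and the 6 platelet markers summed to 13.4 to 29.7 FPKM in banded right ventricles, against 15.5 to 32.5 FPKM in sham right ventricles, and to 20.8 to 32.5 FPKM in banded against 17.0 to 49.1 FPKM in sham left ventricles. The 10 mural cell markers summed to 286 to 382 FPKM in banded against 226 to 254 FPKM in sham right ventricles. Endothelial markers, 10 in all, summed to 478 to 681 FPKM in banded against 345 to 476 FPKM in sham right ventricles, apart as deposited and overlapping when rescaled, with 1 risen. Left endothelial sums were 377 to 574 FPKM with banding and 341 to 398 FPKM with sham surgery, with 1 risen. The summed level of the 9 cardiomyocyte markers moved in opposite directions in the ventricles, but the single markers did not all do so. The log2 difference was above 0 for 4 of the 9 in the right ventricle and for all 9 in the left. Their sum was 19760 to 28103 FPKM in banded against 30667 to 34270 FPKM in sham right ventricles, with 3 fallen (Myl2, Myl3 and Tnni3) and 1 risen (Ttn). In the left ventricle it was 41565 to 50697 FPKM in banded against 20828 to 32289 FPKM in sham libraries, with 2 risen (Myl2 and Tnni3). Both cardiomyocyte differences were free of overlap on either scale. The part of these cell types in the members' values was not tested.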

How the data were processed

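The 16 libraries gave FPKM per gene, deposited by the authors with 1 column per library. Per the submitters' processing notes, the tools were FastQC 0.11.5, STAR 2.5.3a, Cufflinks 2.2.1, Cuffdiff and R 3.3.1, with build mm9. The role of each is not given in the sources used here. The authors' table of group FPKM values sat on another scale (median ratio of the mean of the replicates to the group value 0.667 to 0.894) and was used no further.

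From these values, log2(FPKM + 1) was fitted with limma 3.58.1 (R 4.3.3, trended prior) as 4 group means over all 16 libraries, with genes kept that reached 1 FPKM in at least 4 libraries (12100). Fold changes on this scale understate the change of low genes. Benjamini-Hochberg adjustment ran over every tested gene, at a threshold of 0.05. No label says that libraries of a group are separate animals, so p-values measure the spread between libraries, part of which may be technical. The fit was repeated after rescaling each library by its median ratio, over 8211 genes, to a geometric mean of all libraries, and a call needed the same direction on both scales. All 10 members passed the filter. Leaving out a library, other scalings, pseudocounts, filters and fits were tried as alternatives. Where an alternative was run on both scales, its log2 difference is as deposited and its adjusted p is the larger over both scales. The limma fit and the scale factors were tested on simulated data.

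Depth is not given with FPKM. Fragments were estimated from the steps among the lowest values, with GENCODE vM21 transcript lengths and an assumed fragment length of 200 nt, so they are approximate. Promoter windows come from RefSeq (GRCm38.p6), and coordinates of that build were not combined with mm9.

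The members, the related lists and the marker lists were chosen with earlier results of these data known. Named beside the members are, per list, direction and ventricle, up to 3 called genes with the smallest p-values, and, for likeness, the 3 genes with the highest r among tested genes with a highest group mean of at least 5 FPKM, of which 1 is not reported here. Gene names in the marker paragraphs (Meox1, Lox, Col8a1, Scx, Tnmd, Acan, Col2a1, Myl2, Myl3, Tnni3, Ttn) and Cd36 fall outside that rule and were chosen after their values were seen. Counts of reads were not used.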

Additional observations from a re-analysis of the deposited data

Results flagged for a closer look

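In 9 of 40 sets of 4 libraries, each a member in a group, 1 library lay far from the other 3 on Dixon's criterion. For independent values with a normal spread, chance meets it in about 1 of 20. The criterion was applied to FPKM, whose spread was not shown to be normal, and the 40 sets share the same 16 libraries. The share over all tested genes was not computed, so nothing is read from the count. Thbs1 was at 28.6 FPKM in right ventricular PS_9553, against 7.61 to 10.4 FPKM in the other banded right ventricles. It was at 54.0 FPKM in left ventricular PS_9553, against 2.07 to 7.78 FPKM in the other banded left ventricles. Cyr61 was at 303 FPKM in left ventricular PS_9553, against 40.2 to 75.2 FPKM. Postn was at 83.8 FPKM in right ventricular PS_9561, against 43.6 to 46.4 FPKM, and Thbs2 at 5.62 FPKM in the same library, against 4.33 to 4.53 FPKM. Thbs4 was at 0.385 FPKM in right sham 1, against 1.37 to 1.53 FPKM in the other right sham libraries. Sparc was at 85.1 FPKM in right sham 2, against 101 to 102 FPKM, and at 129 FPKM in left sham 4, against 87.6 to 94.3 FPKM. Ctgf was at 51.7 FPKM in left sham 1, against 34.1 to 34.8 FPKM.

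The effect of banding differed between ventricles for 4 genes of the related lists by the limma test of the difference itself. The right minus left log2 difference was -1.59 for Spock2 (adjusted p = 0.00963), -1.24 for Calr (0.0332), 1.68 for Ankrd1 (0.0431) and 1.04 for Tead1 (0.0453). Over all tested genes 3.45% differed downward and 0.529% upward.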

How the results depend on the processing

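The right ventricular differences of Thbs1, Thbs3, Thbs4, Postn, Cilp, Ctgf, Cyr61, Sparc and Tnc were above 0 in all alternatives in which they were tested (30, and 23 for Tnc, which the filter on low values dropped from the others, 1 with a higher minimum and 6 with fewer libraries). For Thbs3 they ran from 0.20 to 0.91. Left ventricular Ctgf was called in 29 of 30 alternatives, Sparc in 25 and Postn in 24, and the other 7 in none. The number of members called in the left ventricle, 3, was 1 with scaling to equal sums (TPM scaling, where Postn had adjusted p = 0.0515 and Sparc 0.0574), 1 without PS_9553 in both ventricles (an alternative chosen after seeing the data) and 0 with libraries that had an Rn45s value, and 1 to 3 when each library was left out. The left ventricular difference of Thbs1 was -0.21 without left PS_9553, the same without PS_9553 in both ventricles (-0.21), and -0.72 with libraries that had an Rn45s value. It reached 1.18 without left PS_9564. TPM scaling divided each library by the sum of all its entries. The single entry Mir6236 held 21.3% (right PS_9552) to 59.7% (right PS_9564) of that sum. The part of Mir6236 in the TPM results was not tested. Genes called in the left ventricle, 331 with both scales, numbered 1764 as deposited, 76 with TPM scaling, 511 with quantile normalization (245 up and 266 down, against 295 and 36), 531 with the left libraries alone and 38 without PS_9553 in both ventricles, and 43 (without left sham 2) to 571 (without left sham 4) when each library was left out. Right ventricular calls, 1871, were 5833 with TPM scaling (5691 up and 142 down), 810 with the right libraries alone (488 up and 322 down) and 424 with libraries that had an Rn45s value (175 up and 249 down), and 1174 to 1986 on leaving out each library. As deposited the left split was 1725 up and 39 down, and rescaled 295 and 190; in the right it was 1512 and 596, and 1308 and 1101. The right split, 1275 up and 596 down on both scales, was 1043 and 1071 with quantile normalization and 818 and 1169 with the length and GC correction, so the background shares of rises and falls depend on the scaling. With that correction the left split was 255 and 143. Between ventricles it was 64 up and 418 down on both scales, 261 and 426 rescaled, 255 and 266 with quantile normalization and 149 and 405 with the correction. The difference between ventricles, 482 calls, gave 733 as deposited (64 up and 669 down), 754 with TPM scaling (726 up and 28 down), 297 without PS_9553 and 275 to 597 on leaving out each library. With libraries that had an Rn45s value, limma called 0 genes in the left ventricle (526 at an unadjusted p under 0.05 as deposited) and 0 for the difference (1140), with 1 left banded library remaining. The causes were not tested.

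Library numbers shared between ventricles were not taken to pair the samples, although PS_9553 was the highest library of its group for Thbs1 and Cyr61 in both ventricles. Over all tested genes, deviations of same-numbered libraries from their group means correlated between -0.0964 and 0.160, above 0.1 in 1 of 8 pairs. With a replicate block by number, 3 members were still called in the left ventricle (Ctgf log2 difference 2.03, limma adjusted p = 0.0101). Ankrd1 and Tead1 no longer differed between ventricles (adjusted p = 0.0572 and 0.0555). These adjusted p are the larger over both scales, which for Ctgf was 0.0101 without the block as well.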
